A study of Mus musculus with 20 samples.

Results

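The 10 genes described here carry out or direct killing by cytotoxic lymphocytes. They were taken by symbol from a table of 22090 genes, of which 18160 had a count in at least 1 sample, and all 10 were present. By role they are the granzymes Gzma, Gzmb and Gzmc, the pore former Prf1 and granule protein Nkg7, the receptors Ncr1 and Klrk1, the death ligand Fasl, and the ligands Raet1e and H60c. RNA-seq had been made from the skin of 8 female hairless SKH-1 mice, given as aged 7 months, of which 4 received ultraviolet radiation (UVR) and 4 did not. By the methods of the study this was the age before the weeks of radiation, so the mice were older when tissue was taken. The samples were 8 normal skins (NS), 8 actinic keratoses (AK), which are precancerous lesions, and 4 cutaneous squamous cell carcinomas (cSCC). The AK group pools lesions of grade 1 and of higher grades, as scored in the study. Each irradiated mouse gave 1 NS and 3 lesions, so the 8 AK came from 4 mice, and the other NS came from the unirradiated mice. The labels tie no sample to a mouse and do not tell the NS of irradiated mice from those of unirradiated mice, so samples were treated as independent and p-values may be too small.

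Cytotoxic lymphocytes, mainly CD8+ T cells and natural killer (NK) cells, store perforin and granzymes in granules. On contact with a target, perforin opens the target membrane and granzymes, which are serine proteases, enter and start cell death, while Fas ligand does so through the receptor Fas. The receptor NKG2D, encoded by Klrk1, signals through the adaptors Hcst and Tyrobp when it meets stress-induced ligands of the Raet1, H60 and Ulbp families. Mouse epidermis normally holds resident gamma-delta T cells that carry NKG2D, and H60c is a ligand known for its expression in skin.

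All 10 were protein-coding genes in GENCODE M21 on GRCm38. Gzmb (chr14:56258838-56262260) and Gzmc (chr14:56231441-56234656) are neighbours on the minus strand, and Gzma lies apart at chr13:113093825-113100981. Nkg7 is at chr7:43437073-43438249 and Ncr1 at chr7:4337724-4345164, Prf1 at chr10:61297833-61304680, Klrk1 at chr6:129610323-129623864 and Fasl at chr1:161780689-161788495. H60c is at chr10:3256208-3267771. Raet1e spans chr10:22158569-22374139, overlaps 9 other genes and shares 44.7% of its 50-base exon windows with other genes, 40.3% with Raet1d, so its counts are uncertain. The shares were 5.69% for H60c and 4.14% for Gzmc, and 0% for the other 7 genes.

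The promoters of the 4 genes that were lower in cSCC in at least 1 comparison are shown, because the results turn on them. Sequences are from RefSeq on GRCm38.p6, 5′ to 3′ on the strand of the gene, and cover the 250 bases before the RefSeq gene start, or the 185 of them that lie before the GENCODE start for Nkg7. Capitals mark the Runx core TGTGGT or its reverse complement and the gamma-activated site TTCNNNGAA. The windows are chr6:129623865-129624114 (minus strand) for Klrk1, chr7:43436888-43437072 (plus strand) for Nkg7, chr14:56234658-56234907 (minus strand) for Gzmc and chr10:3267772-3268021 (minus strand) for H60c.
Klrk1: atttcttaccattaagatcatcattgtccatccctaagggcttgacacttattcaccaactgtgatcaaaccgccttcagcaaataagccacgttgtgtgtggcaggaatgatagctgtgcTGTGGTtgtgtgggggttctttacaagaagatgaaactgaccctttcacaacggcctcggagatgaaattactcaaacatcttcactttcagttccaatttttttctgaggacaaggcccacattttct
Nkg7: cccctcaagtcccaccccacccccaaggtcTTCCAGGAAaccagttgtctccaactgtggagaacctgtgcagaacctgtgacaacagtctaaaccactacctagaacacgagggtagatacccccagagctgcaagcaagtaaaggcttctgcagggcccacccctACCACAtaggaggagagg
Gzmc: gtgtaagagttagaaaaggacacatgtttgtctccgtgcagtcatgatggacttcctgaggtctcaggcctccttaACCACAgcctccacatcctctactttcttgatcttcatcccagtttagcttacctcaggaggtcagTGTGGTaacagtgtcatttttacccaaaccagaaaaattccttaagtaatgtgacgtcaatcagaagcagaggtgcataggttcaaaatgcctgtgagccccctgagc
H60c: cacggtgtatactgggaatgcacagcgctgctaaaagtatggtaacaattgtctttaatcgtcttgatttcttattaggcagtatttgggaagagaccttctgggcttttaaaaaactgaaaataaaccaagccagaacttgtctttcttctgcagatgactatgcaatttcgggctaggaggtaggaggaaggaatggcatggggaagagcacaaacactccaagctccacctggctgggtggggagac

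Both strands of the 250-base window were searched in all 10 genes. The Runx core was in 7 of 10 windows, compared with 14% of 32851 RefSeq promoters: in Klrk1 (starting at -129 from the gene start), Nkg7 (-83), Gzmc (-174 and -108), Gzmb, Gzma, Prf1 and Ncr1. The 3 windows without it were those of Fasl and of the ligands H60c and Raet1e. The T-box core AGGTGT was in 3 of 10 windows (Nkg7, Prf1 and Gzma) compared with 11.8% of all. An AP-1 site TGANTCA was in the Gzmb window (6.75% of all), and the gamma-activated site was in the Nkg7 window (7.02% of all). A match is a run of letters and was not tested as a binding site.

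Total counts ranged from 775750 (cSCC replicate 20) to 14055206 (AK replicate 10), and a level of 3 counts ranged from 0.225 to 3.78 CPM (counts relative to the TMM-normalized size of the library), which covers counting error only. A 0 in a sample therefore allows a level up to that floor. The TMM factor was 0.5086 in cSCC replicate 18 and 0.8522 to 1.216 in the other samples. This raises the CPM of replicate 18, and its rank among samples can depend on the scaling. Epidermal keratinocyte genes, which check the skin label, summed to 10693 to 25702 CPM in NS, 12578 to 25414 in AK and 4571 to 20045 in cSCC. Replicates 20 and 21 of cSCC stood apart. The summed level of 8 heart muscle genes was 55249 CPM in cSCC replicate 21 and at most 151 in every other sample, and that of 8 lung epithelium genes was 36039 CPM in cSCC replicate 20 and at most 59.3 elsewhere. For the 10 genes, the cSCC fold changes are therefore also given without both of these libraries, and for the other genes it is said where leaving out both ends a call.

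In NS, per kilobase of exon, Nkg7 (mean 56.6 CPM per kb) and H60c (52.6) were the most abundant of the 10 genes. Gzmc (11), Gzma (7.43) and Gzmb (3.22) followed, and Klrk1 (1.45), Fasl (1.36), Prf1 (0.906), Raet1e (0.332) and Ncr1 (0.266) were low. Ncr1, which encodes the NK cell receptor NKp46, had 13 counts in all NS together, 42 in AK and 8 in cSCC, and was at 0 in 5 NS, 2 AK and 2 cSCC samples. Prf1 had 74 counts in NS, 11 in AK and 8 in cSCC. Thus the granule protein and the epidermal ligand were well measured, whereas perforin and the NK cell receptor were near the detection limit.

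**Figure D1:**
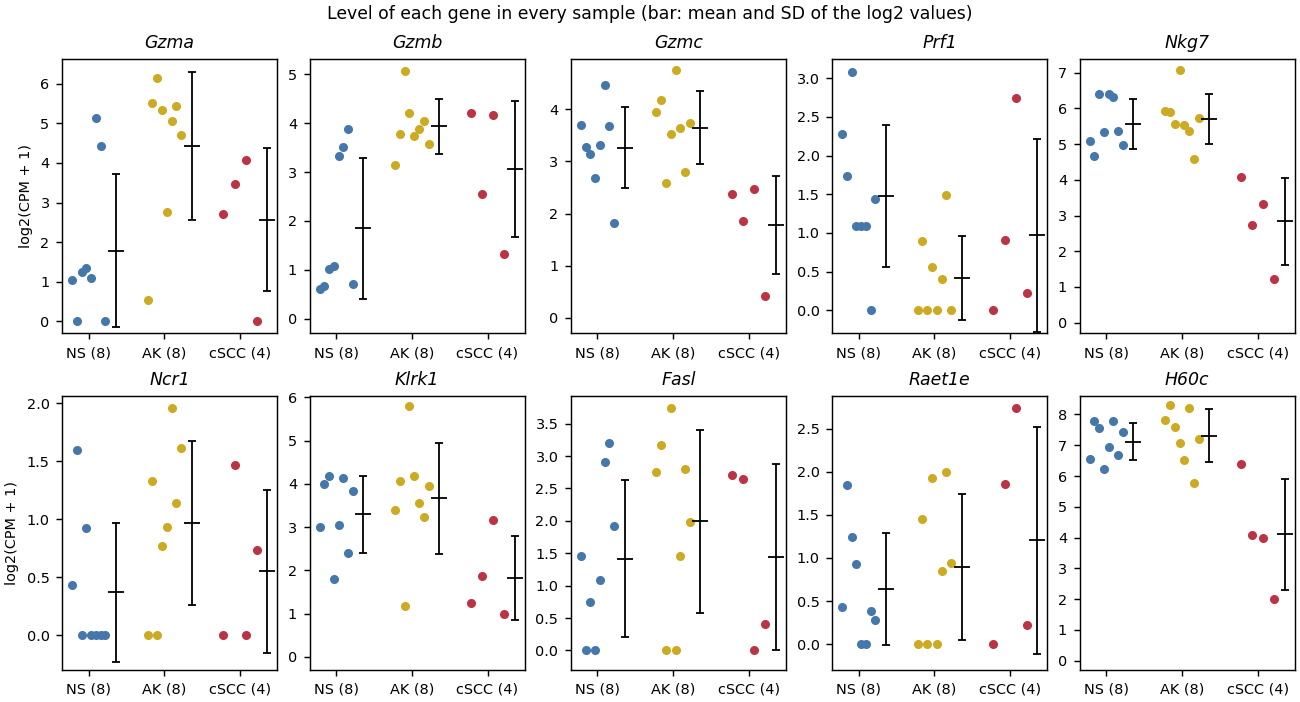
Level of each gene as log2(CPM + 1), 1 point per sample, in 8 NS, 8 AK and 4 cSCC, with the mean and SD of the log2 values as a bar beside the points and a separate vertical scale for each gene. The 4 cSCC points of Nkg7 lie below all NS and AK points, whereas those of Gzmb lie within the range of the other groups.

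Among the granule genes, Nkg7, a membrane protein of cytotoxic granules, was the lowest in cSCC relative to the other tissues. Its median level was 39.9 CPM in NS, where the samples spanned 24.6 to 83.5, and 49.3 CPM in AK, where they spanned 22.8 to 135. In the 4 cSCC it was 16, 5.71, 9.10 and 1.32 CPM in replicates 18 to 21. Every tumor sample was below every NS and every AK sample. Nkg7 was 6.64-fold lower in cSCC vs. NS (log2 fold change -2.73, SE 0.60, adjusted p-value 0.00814 by edgeR's quasi-likelihood test) and 7.27-fold lower in cSCC vs. AK (-2.86, SE 0.59, adjusted p-value 0.00533). In bulk tissue, fewer cells of a type and less RNA per cell cannot be told apart. Without cSCC replicates 20 and 21 the log2 fold changes were -2.27 (adjusted p-value 0.0352) and -2.40 (0.0231), and without cSCC replicate 18 they were -3.44 and -3.62. With limma voom neither difference was called (adjusted p-values 0.0519 and 0.0823).

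Gzmc, a granzyme of activated lymphocytes, had a median of 8.85 CPM in NS (2.55 to 21.2) and 11.9 in AK (5.04 to 25.9). In cSCC it was 4.17, 2.64, 4.55 and 0.331 CPM, and all 4 tumor samples were below all AK samples while 1 of 4 was below all NS. Gzmc was 4.73-fold lower in cSCC vs. AK (-2.24, SE 0.65, adjusted p-value 0.0224). The cSCC vs. NS difference was not called (-1.86, SE 0.70, adjusted p-value 0.0773, and -1.53 without cSCC replicates 20 and 21). It was called lower with DESeq2 and with all 20 samples in 1 fit. The cSCC values of Gzmc rest on 18 counts in all, and without cSCC replicates 20 and 21 the cSCC vs. AK difference was -1.91 (adjusted p-value 0.0695), no longer called.

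Gzmb, the granzyme best known for starting apoptosis in target cells, was unevenly distributed among NS samples. It was 9.01, 10.4 and 13.7 CPM in replicates 6, 7 and 8 and at most 1.12 CPM in the other 5 samples. In AK it ranged from 7.86 to 32.8 CPM (median 13.3), and all 8 AK samples were above the NS median while 4 were above every NS sample. In cSCC it was 17.4, 4.83, 17.1 and 1.49 CPM, all above the NS median of 1.07. None of the 3 differences was called. The log2 fold change was 1.71 in AK vs. NS (SE 0.62, unadjusted p-value 0.0116, adjusted 0.0978), 1.15 in cSCC vs. NS (SE 0.96, adjusted 0.427) and -0.57 in cSCC vs. AK, with an approximate 95% interval of -1.69 to 0.55. Without cSCC replicates 20 and 21 the last 2 values were 1.28 and -0.41. The AK vs. NS difference passed when NS replicate 8 was left out (adjusted p-value 0.0369) and with DESeq2 and limma voom.

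Gzma, a tryptase-like granzyme, varied widely within groups. The median in NS was 1.24 CPM, with 34.3 and 20.4 CPM in replicates 7 and 8 and at most 1.57 in the others. In AK it ranged from 0.449 to 69.4 CPM (median 35.8), and in cSCC it was 5.56, 10.1, 15.9 and 0 CPM. Thus 4 AK samples were above every NS sample and 1 was below the NS median, so the groups overlapped. The AK vs. NS log2 fold change of 2.02 (SE 0.91) had an unadjusted p-value of 0.0394 and an adjusted p-value of 0.179 by edgeR's quasi-likelihood test and was not called. Without NS replicate 7 it was 3.12 (adjusted p-value 0.0625). It was 0.02 in cSCC vs. NS (SE 1.42, adjusted p-value 0.993) and -2.05 in cSCC vs. AK (SE 1.08, adjusted p-value 0.177), and these were 0.08 and -1.89 without cSCC replicates 20 and 21.

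Prf1, which encodes perforin, did not pass the filter on low counts in any comparison. The highest of 8 values was 7.46 CPM in NS (median 1.41) and 1.80 CPM in AK, where 4 of 8 samples were at 0. In cSCC it was 0, 0.879, 5.69 and 0.165 CPM, each resting on 5 counts or fewer. Without the gene filter the AK vs. NS log2 fold change was -2.55 (unadjusted p-value 0.0109, adjusted 0.127 by edgeR's quasi-likelihood test), not called. In AK, 7 of 8 samples were below the NS median, and 7 of 8 rest on 3 counts or fewer. The unfiltered cSCC values were -0.72 vs. NS and 1.77 vs. AK (adjusted p-values 0.706 and 0.387 by the same test). At such counts these differences are uncertain.

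Because Gzmb and Nkg7 are products of the same kind of granule, their raw counts were set against each other within each sample, a ratio chosen after the values were seen and given as a description. The median number of Gzmb counts per 100 Nkg7 counts was 2.61 in NS (1.22 to 33.8), 24.5 in AK (13 to 70.3) and 111 in cSCC (84.6 to 188). The cSCC ratios rest on 25 against 23 counts, 11 against 13, 15 against 8 and 9 against 8 in replicates 18 to 21. All 4 lay above every NS and AK ratio. Nkg7, the denominator, was itself lower in all 4 than in every NS and AK sample, so this is not separate evidence. How often other genes set against Nkg7 would separate the groups was not counted. The Gzmc counts per 100 Nkg7 counts overlapped between groups, at 8.39 to 36.4 in NS, 7.81 to 57.0 in AK and 25 to 50 in cSCC. Those of Gzma also overlapped (0 to 50.4, 0.752 to 187 and 0 to 177). So did those of Klrk1 (6.29 to 61.2, 2.7 to 40.5 and 8.7 to 87.5).

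**Figure D2:**
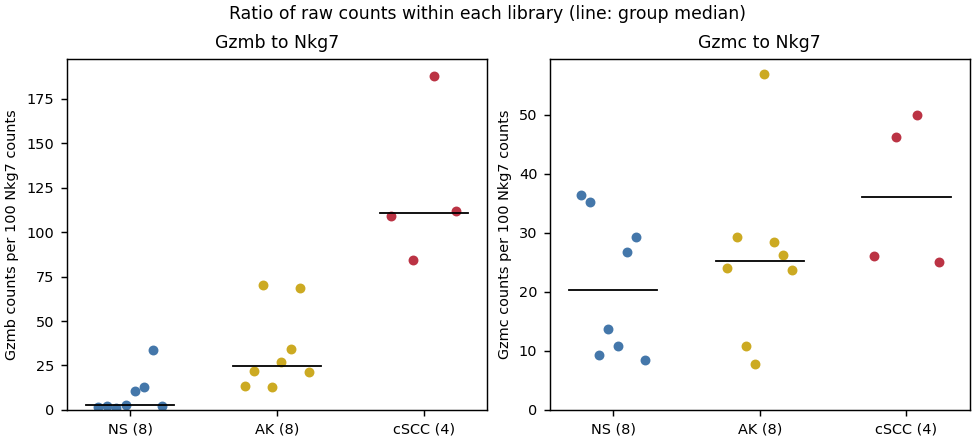
Counts of Gzmb (left) and Gzmc (right) per 100 counts of Nkg7 in each sample, with a line at the median of each group. The Gzmb ratios were 1.22 to 33.8 in NS, 13 to 70.3 in AK and 84.6 to 188 in cSCC, and the Gzmc ratios overlapped.

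Of the receptors, Klrk1, encoding NKG2D, had a median of 10.3 CPM in NS (2.47 to 17.3) and 12.7 in AK (1.26 to 54.5). In cSCC it was 1.39, 2.64, 7.96 and 0.992 CPM. All 4 tumor samples were below both medians, but only 2 were below every NS sample and 1 below every AK sample. Klrk1 was 5.60-fold lower in cSCC vs. AK (-2.49, SE 0.82, adjusted p-value 0.0399), and this call rests on single libraries, since it held in 4 of 12 fits that each left out 1 sample. It was lost without AK replicate 11, 13, 14, 15 or 17 or cSCC replicate 18, 19 or 21, with adjusted p-values up to 0.0968, and without both cSCC replicates 20 and 21 (-2.93, adjusted p-value 0.0802). The cSCC vs. NS difference was not called (-1.82, SE 0.71, adjusted p-value 0.0866), but was without cSCC replicate 20 (-2.63, adjusted p-value 0.0255), and it was -2.29 (0.0956) without both replicates 20 and 21. DESeq2 also called it lower (adjusted p-value 0.0427).

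Fasl, the ligand of the death receptor Fas, ranged from 0 to 8.22 CPM in NS and from 0 to 12.4 in AK, and was 5.56, 5.27, 0 and 0.331 CPM in cSCC. The groups overlapped throughout. The log2 fold change was 0.82 in AK vs. NS (SE 0.78, adjusted p-value 0.543) and -0.68 in cSCC vs. AK (approximate 95% interval -2.73 to 1.36, and 0.23 without cSCC replicates 20 and 21), and Fasl was not tested in cSCC vs. NS.

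The ligand H60c was abundant in NS and AK. The median was 145 CPM in NS (74.5 to 221) and 169 CPM in AK (53.3 to 313). In cSCC it was 82.7, 15.8, 14.8 and 2.98 CPM. The samples of replicates 19, 20 and 21 were below every NS and AK sample, and replicate 18 lay within both ranges. That position rests on 119 counts scaled by a TMM factor of 0.5086, the lowest of any sample, which raises its CPM. H60c was 5.05-fold lower in cSCC vs. NS (-2.34, SE 0.67, adjusted p-value 0.0263) and 6.04-fold lower in cSCC vs. AK (-2.60, SE 0.71, adjusted p-value 0.0177). Without cSCC replicates 20 and 21 the values were -1.59 (adjusted p-value 0.0966) and -1.85 (0.0874), neither called, and the cSCC vs. NS call was also lost without replicate 19 or 20 alone, with adjusted p-values up to 0.0700. Without replicate 18, the highest tumor sample, the values were -3.78 and -4.06.

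Raet1e, a RAE-1 family ligand, had 21 counts in NS, 34 in AK and 12 in cSCC, with a range of 0 to 2.61 CPM in NS, 0 to 3 in AK and 0 to 5.69 in cSCC. It was tested only in cSCC vs. AK, where its log2 fold change was 0.73 (approximate 95% interval -1.68 to 3.13), -0.23 without cSCC replicate 20 and 0.40 without both replicates 20 and 21. Its direction thus changed with the libraries left out and was not determined. The other NKG2D ligands of the table, Raet1d, H60b and Ulbp1, summed to at most 3.66 CPM in any sample and none was tested. Of the ligands measured, H60c alone exceeded 6 CPM in a sample.

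In AK vs. NS, 7 of the 10 genes passed the filter and none was called by edgeR's quasi-likelihood test, with 2 (Gzma and Gzmb) at an unadjusted p-value under 0.05. Of all 11677 genes tested, 2.26% were called higher and 2.38% lower. The levels of Nkg7 (log2 fold change 0.15, approximate 95% interval -0.48 to 0.78), H60c (0.27, -0.34 to 0.89), Gzmc (0.40, -0.31 to 1.11) and Klrk1 (0.68, -0.26 to 1.61) had intervals that included 0. The groups overlapped for all 10 genes, compared with 0.394% of genes higher and 0.128% lower without overlap.

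In cSCC vs. NS, 6 of 10 passed the filter and 2 (Nkg7 and H60c) were lower, compared with 7.65% of the 12097 genes tested. None was higher, compared with 11.7%. In cSCC vs. AK, 8 of 10 passed and 4 (Nkg7, H60c, Gzmc and Klrk1) were lower, compared with 8.34% of 12032 genes, and none was higher, compared with 16%. With library size alone as the scaling, calls to lower outnumbered calls to higher, with 1332 genes lower in cSCC vs. NS in place of 926 and 1356 in cSCC vs. AK in place of 1004, while 2 and 4 of the 10 genes were again lower. Groups did not overlap for 1 gene in cSCC vs. NS (Nkg7, against 5.73% of genes lower without overlap) and for 2 in cSCC vs. AK (Nkg7 and Gzmc, against 6.84%). Of all genes, 2.7% and 3.33% were higher without overlap in the 2 comparisons, and none of the 10 was. Both comparisons use the same 4 cSCC samples.

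**Figure D3:**
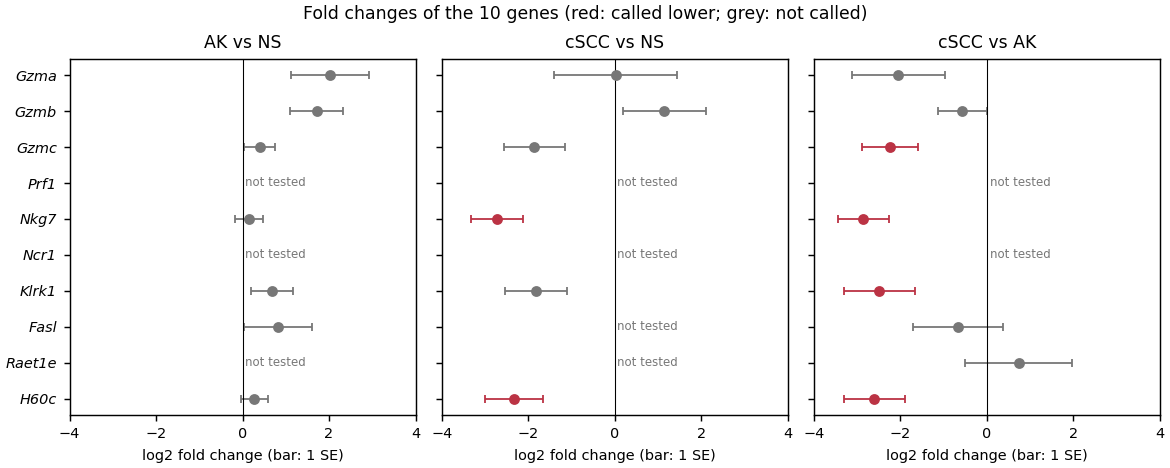
Log2 fold change of each gene in 3 comparisons, with bars of 1 SE. Red points were called lower (Benjamini-Hochberg adjusted p-value under 0.05 and fold change below 0.67), grey points were not called, and genes under the filter on low counts are marked as not tested. No gene was called in AK vs. NS, 2 were in cSCC vs. NS and 4 in cSCC vs. AK.

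Of the T cell markers, 1 was called in the cSCC comparisons. The summed level of 8 such genes was 56.0 to 200 CPM in NS and 37.8 to 178 in AK. In cSCC replicates 18 to 21 it was 36.1, 13.6, 35.3 and 14.9 CPM. The list does not tell alpha-beta from gamma-delta T cells, because Cd3e, Cd3d and Cd3g belong to both. Cd3g was 28.3 to 143 CPM in NS, whereas Cd4 was at most 3.83, Cd8a at most 11 and Cd8b1 at most 14. Cd3g, a subunit of the T cell receptor complex, was lower in cSCC vs. NS (-3.60, SE 0.70, adjusted p-value 0.00466) and in cSCC vs. AK (-2.93, SE 0.67, adjusted p-value 0.00824). With limma voom the latter was not called. These were 1 of 5 and 1 of 6 tested, compared with 7.65% and 8.34% of all genes tested that were lower. Cd3d (-1.59, adjusted p-value 0.0778, and -0.96, 0.243) and Cd5 (-0.69, 0.535, and -0.50, 0.635) were tested in both and not called. Cd5 was 10.4 CPM (15 counts) in cSCC replicate 18, above every other sample, with the TMM factor of 0.5086 that raises the CPM of this library. Cd8a was 0, 4.39 (10 counts), 0 and 0 CPM and Cd4 0, 0, 4.55 (4 counts) and 0 CPM in cSCC. Neither was tested in cSCC vs. NS. In cSCC vs. AK, Cd8a (-2.70, adjusted p-value 0.125 by edgeR) and Cd8b1 (-2.34, 0.123) were not called. They were called without cSCC replicate 19 and 20, respectively. In AK vs. NS none of 6 tested was called: Cd8a (1.38, 0.186), Cd8b1 (1.46, 0.207), Cd28 (1.48, 0.0767), Cd3d (-0.60, 0.199), Cd3g (-0.64, 0.248) and Cd5 (-0.15, 0.829). Nkg7 counts per 100 Cd3g counts ranged from 27.5 to 187 in NS, 90.2 to 196 in AK and 57.1 to 288 in cSCC, where they rest on 23 against 8, 13 against 5, 8 against 14 and 8 against 7 counts. This is a description, and Cd3g was itself chosen after it was called lower. The part of T cells in the differences of Nkg7, Gzmc, Klrk1 and H60c was not tested. Of 10 gamma-delta T cell markers 3 were in the table, none was tested (sums at most 6.12 CPM), and the receptor genes of these cells were not analysed here.

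**Figure D4:**
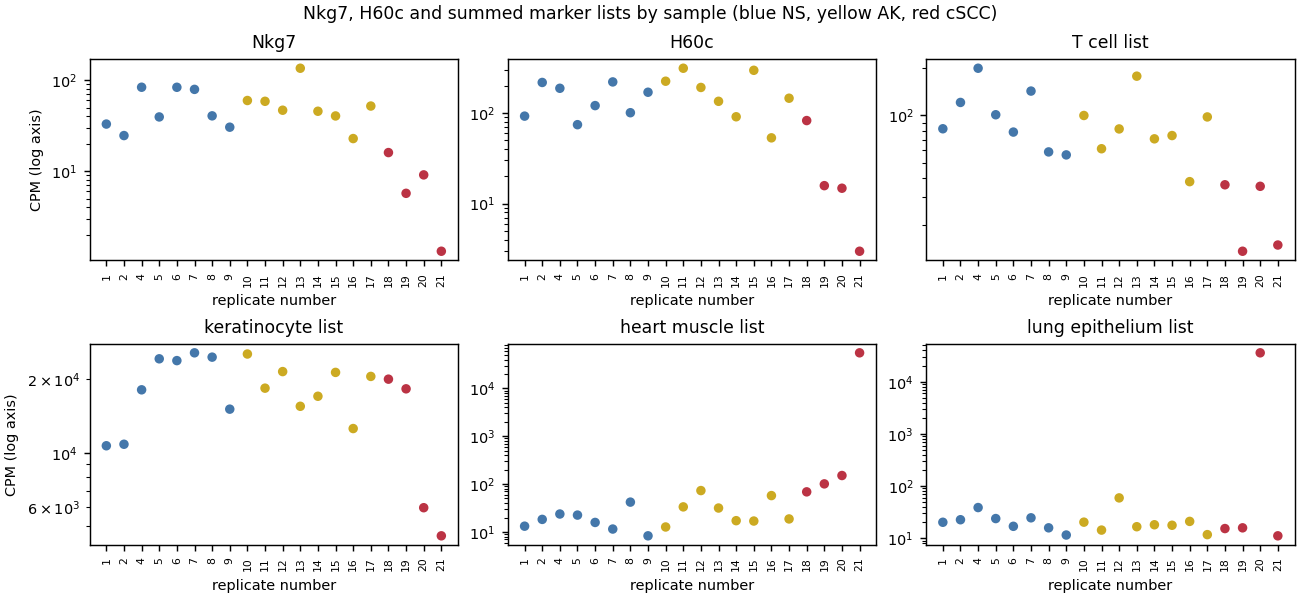
CPM on a log axis in each sample, by replicate number (NS 1 to 9, AK 10 to 17, cSCC 18 to 21). The panels are Nkg7, H60c and the summed T cell, keratinocyte, heart muscle and lung epithelium lists. The T cell sum was 13.6 to 36.1 CPM in cSCC, and the heart and lung sums reached 55249 CPM in replicate 21 and 36039 CPM in replicate 20.

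Markers of other cell types also differed. In cSCC the macrophage and neutrophil genes summed to 2209 to 15366 CPM, against 278 to 6033 in NS and 823 to 3455 in AK, and Cd14, a monocyte co-receptor, was higher in cSCC vs. NS (4.35, SE 0.49, adjusted p-value 0.000323) and vs. AK (3.97, SE 0.59, adjusted p-value 0.00194). Csf3r, the neutrophil growth factor receptor, was higher in both (3.41 and 3.78), and S100a8 (1.97) and S100a9 (2.25), which encode abundant neutrophil proteins and make up much of the sum, in cSCC vs. AK. These were 2 of 8 and 4 of 8 tested, compared with 11.7% and 16% of all genes tested that were higher. Csf1r (-0.05 and 0.52), Cd68 (-0.20 and -0.96), Mrc1 (0.15 and -0.21) and Ly6g (0.89 and 0.13) were called in neither. S100a9 is not limited to neutrophils, since the study measured it in the carcinoma lines PECA and A431 and in HaCaT keratinocytes. The part of each cell type in the sum was not tested. Mast cell genes, which include granule proteases, summed to 58.0 to 1419 CPM in NS, 109 to 1876 in AK and 16.2 to 1096 in cSCC, with Tpsab1 alone called, higher in cSCC vs. NS (3.36, adjusted p-value 0.0275, not called without NS replicate 4 or 6 or cSCC replicate 20). Among keratinocyte genes, the cornified layer genes Lor and Flg and the suprabasal keratins Krt1 and Krt10 were lower in cSCC vs. NS (-6.35, -4.41, -3.46 and -4.04) and vs. AK (-4.65, -4.19, -3.02 and -3.12). Dsp was lower in cSCC vs. AK (-0.96), Dsg3 higher in cSCC vs. NS (0.95), and Lor lower in AK vs. NS (-1.71). Without both cSCC replicates 20 and 21, Krt1 was called in neither comparison and Krt10 and Dsp not in cSCC vs. AK. Without cSCC replicate 19 or 20 Krt1 was called in neither comparison, without replicate 20 Krt10 was not called vs. AK, without replicate 18 S100a8 was not, and Dsp and Dsg3 were called in 6 and 3 of 12 fits leaving out 1 sample. S100a8 was also not called vs. AK with DESeq2, with limma voom or with all 20 samples in 1 fit. H60c is a ligand of skin epithelium, and the part of keratinocytes in its level was not tested.

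Of 18 other granzyme and granule release genes, 10 were tested in AK vs. NS and 1 was called, Ctsc, the protease that activates granzymes, which was higher (0.71, SE 0.16, adjusted p-value 0.0190). Among all genes tested there, 2.26% were higher. In cSCC vs. NS, 11 were tested and 2 were higher and 0 lower, compared with 11.7% and 7.65% of all genes tested. The 2 were Srgn, the proteoglycan core of granules in many leukocytes (2.45, SE 0.51, adjusted p-value 0.00666), and Serpinb9, an inhibitor of granzyme B (1.84, SE 0.47, adjusted p-value 0.0164, not called without cSCC replicate 19). Srgn was 522, 509, 942 and 133 CPM in cSCC, against 40.7 to 224 in NS. In cSCC vs. AK the same pair was higher, Srgn by 1.34 (adjusted p-value 0.0316, in 4 of 12 fits leaving out 1 sample) and Serpinb9 by 1.26 (0.0482, in 1 of 12). Among all genes tested there, 16% were higher. The Srgn call was kept only without AK replicate 13 or 16 or cSCC replicate 18 or 21, and the Serpinb9 call only without cSCC replicate 18, and the latter was lost without both replicates 20 and 21. The median log2 fold change of the tested genes of this list was 0.49, -0.28 and -0.50 in the 3 comparisons, against -0.04, 0.14 and 0.17 over all genes. Serpinb9 was 16, 139, 61.4 and 40 CPM in cSCC against 10.5 to 37.9 in NS, so that Srgn in replicate 21 and Serpinb9 in replicate 18 lay within the NS range.

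Of 11 genes of NKG2D adaptors and signalling, 8 were tested and none was called in any comparison. The adaptor Hcst was 9.02 ± 6.38 CPM in NS (SD, n = 8), 8.02 ± 2.54 in AK (n = 8) and 3.75 ± 3.68 in cSCC (n = 4), with a log2 fold change of -1.25 in cSCC vs. NS (SE 0.74, adjusted p-value 0.252 by edgeR). The adaptor Tyrobp, also used by myeloid receptors, was 163 ± 111, 155 ± 53.2 and 138 ± 83.4 CPM, with a log2 fold change of -0.18 (SE 0.47, adjusted p-value 0.826 by edgeR).

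Of 21 other NK and cytotoxic lymphocyte receptors, Cd96, a receptor of T and NK cells, was lower in cSCC vs. NS (-3.37, SE 0.97, adjusted p-value 0.0268) and vs. AK (-3.05, SE 0.82, adjusted p-value 0.0161). It was 0, 0, 3.41 and 0.992 CPM in cSCC and 2.13 to 18 in NS, and the cSCC vs. NS call was lost without cSCC replicate 19 or 21. With limma voom Cd96 was called in neither comparison. Slamf7 was lower in cSCC vs. AK (-2.32, SE 0.68, adjusted p-value 0.0235), a call lost without both cSCC replicates 20 and 21 and also with limma voom. Klra1, a Ly49 receptor of a family of similar genes, was higher in AK vs. NS (2.66, SE 0.71, adjusted p-value 0.0371), in 6 of 16 fits leaving out 1 sample, those without NS replicate 8 or 9 or AK replicate 10, 11, 14 or 17. The medians of the tested genes were 0.73 in AK vs. NS (15 tested), -0.80 in cSCC vs. NS (17) and -1.48 in cSCC vs. AK (16).

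In the death receptor pathway, none of 8 tested genes was called in AK vs. NS. In cSCC vs. AK, the cytokine gene Tnf was higher (2.70, SE 0.78, adjusted p-value 0.0222), and so was Bid, which encodes a death agonist (1.24, SE 0.43, adjusted p-value 0.0464, in 3 of 12 fits leaving out 1 sample). Both calls were lost without cSCC replicate 19, and also with limma voom. The Bid call was kept only without AK replicate 11 or 13 or cSCC replicate 21. The receptor gene Fas was 29.9 ± 8.77 CPM in NS (SD, n = 8), 48 ± 16.7 in AK (n = 8) and 49.9 ± 18.1 in cSCC (n = 4), and was not called in any comparison by edgeR (adjusted p-values 0.0687, 0.0745 and 0.756).

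Of 20 regulators and cytokines of cytotoxic lymphocytes, 3 of 10 tested were lower in cSCC vs. NS, compared with 7.65% of all genes tested. In cSCC vs. AK 4 of 12 were lower, compared with 8.34%. None was higher in either, compared with 11.7% and 16%. The medians of the tested genes were -0.45 and -0.91, against 0.14 and 0.17 over all genes. Prdm1, encoding the transcription factor Blimp-1, was 80.3 ± 21.7 CPM in NS (SD, n = 8) and 22.3 ± 3.95 in cSCC (n = 4), with log2 fold changes of -1.79 (adjusted p-value 0.00167 by edgeR) and -1.78 vs. AK (0.00219). Il12rb2, a subunit of the interleukin-12 receptor, was lower in both (-3.80 and -2.87, adjusted p-values 0.00943 and 0.0254), and so was the cytokine gene Il18 (-2.76 and -2.30, adjusted p-values 0.0169 and 0.0278). Il7r, the interleukin-7 receptor, was lower in cSCC vs. AK (-2.44, adjusted p-value 0.0171) and was higher in AK vs. NS (1.03, 0.0485, in 3 of 16 fits leaving out 1 sample). Without cSCC replicates 20 and 21, Il12rb2 was called in neither comparison and Il18 not in cSCC vs. AK, nor without replicate 19 or 20 alone. Limma voom also called Il12rb2 in neither comparison. The Il7r call in AK vs. NS was kept only without NS replicate 6 or 8 or AK replicate 10. Il18 averaged 389 CPM in NS. All genes of this list were measured in bulk skin, and the part of lymphocytes or keratinocytes in their levels was not tested.

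Across the 20 samples, the genes whose log2(CPM + 1) ranked most like the leading gene of each role were listed among 12848 genes, as a description over samples that share group, tissue makeup and depth. For Nkg7 they were H2-Q6 (Spearman's rho 0.90), Clca5 (0.87), Pyy (0.86), Aggf1 (0.86) and Itgae (0.84), the last encoding an integrin of skin-resident T cells. Gzmc ranked 310 for Nkg7 (rho 0.65), H60c 327 (0.64), Klrk1 500 (0.60), Gzma 3108 (0.29) and Gzmb 5104 (0.12). For Klrk1 they were Klri2 (0.82), Mup6 (0.77), Mt3 (0.77), Mup2 (0.77) and Cd8a (0.77), and for H60c they were Cd27 (0.79), Setd6 (0.76), Slc31a2 (0.75), Slc5a9 (0.72) and Ankrd55 (0.72). Within the 16 NS and AK samples, rho was 0.89 for Nkg7 with H2-Q6, 0.81 for Klrk1 with Klri2 and 0.70 for H60c with Cd27, and it was 0.35 for Nkg7 with Gzmc and 0.32 with H60c. The granzymes Gzma and Gzmb therefore ranked far from Nkg7 in these samples.

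**Figure D5:**
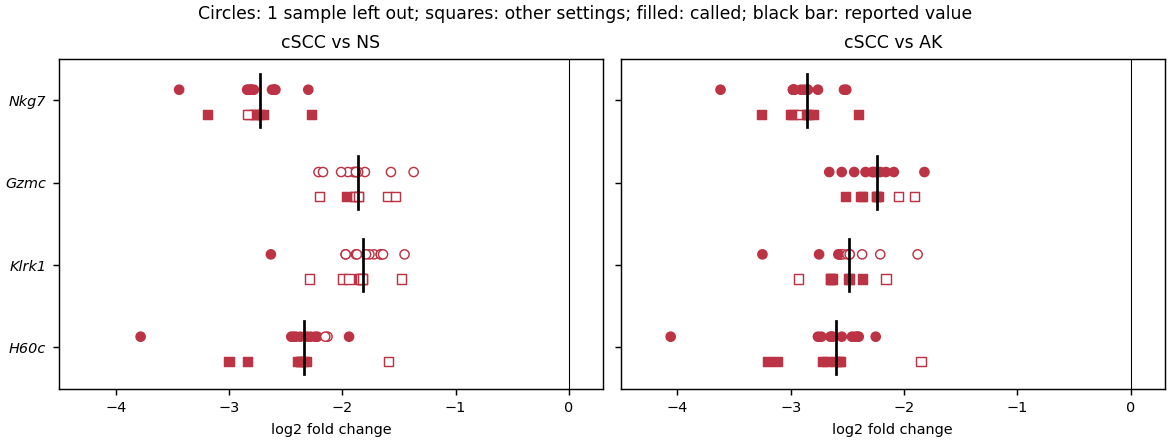
Log2 fold change of 4 genes in cSCC vs. NS (left) and cSCC vs. AK (right) when 1 sample was left out (circles) or another setting was used (squares), filled where the gene was called, with a black bar at the reported value. Nkg7 was called in 12 of 12 fits leaving out 1 sample in both comparisons, and Klrk1 in 4 of 12 in cSCC vs. AK.

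Of the 4 genes lower in cSCC, Nkg7 was the only one called in both comparisons in every fit that left out 1 sample and without cSCC replicates 20 and 21, although limma voom did not call it in either. Its log2 fold change ranged from -3.44 to -2.30 in cSCC vs. NS and from -3.62 to -2.51 in cSCC vs. AK over those fits. H60c in cSCC vs. AK (-4.06 to -2.25) and Gzmc in cSCC vs. AK (-2.66 to -1.82) were also called in all 12, although not when both libraries were left out. Limma voom called H60c in both comparisons, and did not call Gzmc or Klrk1 in cSCC vs. AK.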

How the data were processed

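Per the labels, total RNA was sequenced from mouse skin; the submitters' processing notes name Trimmomatic 0.36, HISAT2 2.0.5 and featureCounts 1.5.2, while the methods of the study name StringTie on GRCm38, so the counter is uncertain. The notes list the builds mm9 and hg19, so the build behind the counts is uncertain too, and the GRCm38 coordinates and exon sharing are from the annotation used here. The authors deposited raw counts per gene symbol, not normalized. Strand use in counting is not given in the sources used here. CPM were computed with TMM factors over 20 samples (edgeR 4.0.16, R 4.3.3). Pairs of groups were fitted alone, over the whole table after filterByExpr, and tested by quasi-likelihood in edgeR. Calls needed an adjusted p-value (Benjamini-Hochberg) below 0.05 together with the fold limits of the study, 1.5 and 0.67. Approximate 95% intervals are the estimate ± 1.96 SE. The script was tested on simulated data, where it recovered 87.2% of the changed genes in AK vs. NS, 38% in cSCC vs. NS and 53.8% in cSCC vs. AK. The median estimates of these simulated log2 changes were 1.98, 1.94 and 2.07. A gene not called in a cSCC comparison may therefore still differ. Total counts were 775750 to 14055206 per sample.

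All 10 genes, called genes of the other lists (6 at most per list, by fold change) and the 5 genes most like the leading gene of each role were named. Heart and lung genes served only as sums. The members and lists were chosen with earlier results of these data known. Alternatives were DESeq2 1.42.0, limma 3.58.1 voom with sample weights, library size alone, upper quartile factors, no gene filter, no fold limit, all 20 samples in 1 fit, leaving out each sample, and leaving out cSCC replicates 20 and 21. A result of the death receptor list that concerns a withheld item is not reported here.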

Additional observations from a re-analysis of the deposited data

How the results depend on the processing

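No paired analysis was possible because the groups share no replicate number and the labels tie no sample to a mouse. In AK vs. NS, the number of the 10 genes called was 0, and 1 (Gzmb) with DESeq2, with limma voom and without NS replicate 8 (0 to 1 leaving out 1 sample). In cSCC vs. NS it was 2, and 4 with DESeq2 (Gzmc and Klrk1 added), 1 (H60c) with limma voom and 1 (Nkg7) without both cSCC replicates 20 and 21. With all 20 samples in 1 fit, Gzmc was called as well. Leaving out 1 sample gave 1 (without cSCC replicate 19) to 2 there. In cSCC vs. AK it was 4, and 1 (H60c) with limma voom and 1 (Nkg7) without replicates 20 and 21 (3 to 4 leaving out 1 sample). With limma voom, Nkg7 had adjusted p-values of 0.0519 and 0.0823 in the cSCC comparisons. Signs turned only for differences that were not called. Nkg7 in AK vs. NS ranged from -0.16 (without AK replicate 13) to 0.29 leaving out 1 sample. Gzma in cSCC vs. NS was -0.02 with library size alone, -0.01 without a gene filter, -0.09 with all samples in 1 fit, and -0.57 to 0.48 in the 10 of 12 fits leaving out 1 sample that tested it. Fasl in cSCC vs. AK was 0.23 without replicates 20 and 21, and Raet1e ranged from -0.23 to 1.19 leaving out 1 sample. Over all genes, 542 were called in AK vs. NS (9 with all samples in 1 fit to 1059 with DESeq2), 2340 in cSCC vs. NS (1308 with limma voom to 3271 with all samples in 1 fit) and 2935 in cSCC vs. AK (1270 with limma voom to 3994 without cSCC replicate 18). The median log2 fold change of all genes in AK vs. NS was -0.04, and -0.13 with library size alone; it moved from 0.14 to -0.17 in cSCC vs. NS and from 0.17 to -0.09 in cSCC vs. AK. The causes were not tested. Low counts limit what can be said of Prf1, Ncr1, Fasl and Raet1e. In AK replicate 10, the deepest library, Prf1, Ncr1 and Raet1e had 0 counts and Fasl had 77.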
